A study of Mus musculus with 20 samples.

Results

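Long noncoding RNAs (lncRNAs) are transcripts that carry no annotated coding sequence. Many, but not all, are spliced and polyadenylated like messenger RNAs. Some act in the nucleus as scaffolds of nuclear bodies, some are mainly the spliced remains of genes whose introns hold small nucleolar RNAs (snoRNAs), and others lie beside or opposite a coding gene and are often transcribed together with it. The 200 lncRNAs with the highest mean raw count in the proximal colon (PC) were examined here, out of 538 lncRNAs among the 12701 genes of the count table. A gene was taken as a lncRNA by its GENCODE M39 gene type, and Gm33424 and Plet1os were left out by rule. Because these genes were chosen by their mean raw count over the 20 libraries, their levels are given as a description, while differences between diets were not used in the choice.

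RNA was sequenced from the PC of 20 C57BL/6 mice, an inbred strain, with 5 mice and 5 libraries per diet. All mice, the 0% RPS controls included, were kept on the Total Western Diet (TWD), a feed modelled on what Americans eat. After 6 weeks, resistant potato starch (RPS) made up 0, 2, 5, or 10% of that feed during the last 3 weeks. RPS is a raw starch that bacteria of the cecum and colon ferment. Libraries were made from polyadenylated RNA, so transcripts without a poly(A) tail are poorly sampled. Total counts ranged from 20581013 to 35083751 per library, and the lowest count of any of the 200 lncRNAs in any library was 42. All 9 colon epithelium markers were present in every library, with a summed normalised count of 835872 to 979150 at 0% RPS and 1033060 to 1509470 at 10% RPS, 2 ranges that do not overlap. Replicate 2 of the 0% RPS diet stood apart: its fibroblast markers summed to 55432 against at most 29605 in the other 19 libraries, its plasma and B cell markers to 71570.3 against at most 35724.5, and its smooth muscle markers to 281490 against at most 246782. The fits were repeated without this library, and several of the results below are given with and without it.

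Sequences at the start sites of the snoRNA host genes are shown first, since these genes form the largest of the gene lists examined and their values at 10% RPS are described below. Genes of the translation machinery and many snoRNA hosts start transcription in a run of pyrimidines (C and T), the terminal oligopyrimidine tract. In each line the 30 bases before and the 30 bases from the start are given 5′ to 3′. Capitals mark the longest run of C and T that reaches within 10 bases of the start. Where a gene symbol has several entries, the entry with the longest run was taken. The sequences are those of RefSeq's promoter table (GRCm38.p6), and each matched GRCm39 exactly once.
Gas5 (chr1:160862706-160862765, plus strand): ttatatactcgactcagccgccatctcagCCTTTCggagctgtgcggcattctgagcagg
Snhg1 (chr19:8700821-8700880, plus strand): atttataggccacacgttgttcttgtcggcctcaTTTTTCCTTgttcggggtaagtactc
Snhg8 (chr3:123301956-123302015, minus strand): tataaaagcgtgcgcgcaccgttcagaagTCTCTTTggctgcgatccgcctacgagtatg
Snhg12 (chr4:132035959-132036018, plus strand): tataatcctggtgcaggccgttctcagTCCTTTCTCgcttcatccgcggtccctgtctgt
2410006H16Rik (chr11:62493673-62493732, plus strand): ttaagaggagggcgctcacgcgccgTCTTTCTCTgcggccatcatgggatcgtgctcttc
Zfas1 (chr2:166904824-166904883, plus strand): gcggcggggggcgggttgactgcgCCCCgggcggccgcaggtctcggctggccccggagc
The run was 9 bases long in Snhg1, Snhg12, and 2410006H16Rik, 7 in Snhg8, 6 in Gas5, and 4 in Zfas1. A run of 8 or more was held by 5 of the 17 annotated snoRNA hosts with a promoter entry (29.4%), by 27 of the 123 of the 200 lncRNAs with an entry (22%), by 29 of 60 cytosolic ribosomal protein genes (48.3%), and by 16.1% of all 27025 gene symbols of the table. The RefSeq start of Zfas1 lies inside the longer GENCODE gene model. A short run says only that these letters do not follow each other here.

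Mean raw counts of the 200 lncRNAs ran from 142.45 to 41898, with a median of 332 against 932 for protein-coding genes of the table. Together they held 0.605% of all counts. Neat1, the RNA on which nuclear paraspeckles are built, alone took 25.4% of the lncRNA counts, and the first 10 took 45.3%. The 9 that followed were Norad, which binds Pumilio proteins in the cytoplasm and guards genome stability, Malat1 of the nuclear speckles, the maternally expressed imprinted RNA Meg3, Bvht, known from heart development, Oip5os1, Gas5, the X-linked Firre, Gm43305, and Foxd2os. The plot of mean count by rank shows this steep start and a long, flat remainder.

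**Figure D1:**
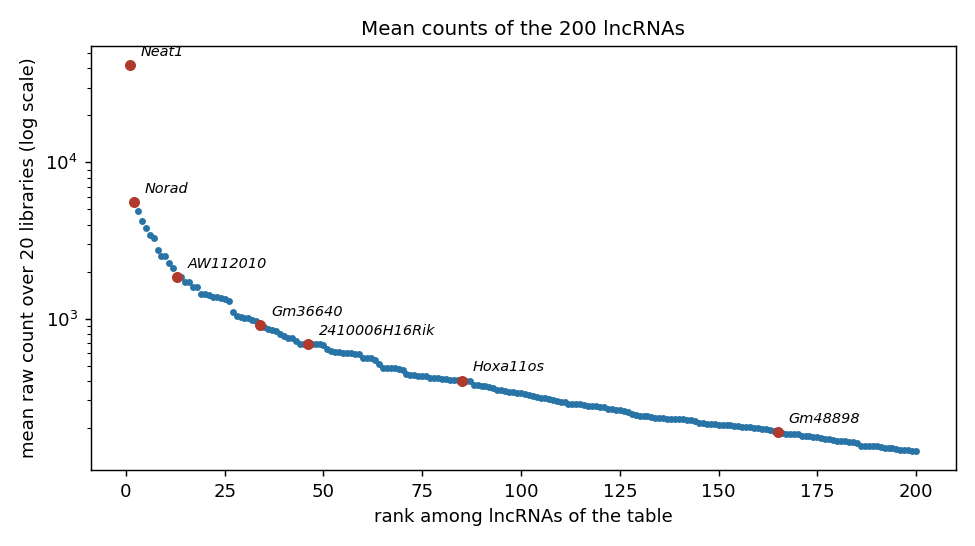
Mean raw count over the 20 libraries (log axis) against rank for the 200 lncRNAs, with 7 of them named in red. Neat1 stands at 41898 counts, Norad, the next, at 5543, and the last at 142.45.

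Counts grow with transcript length, so levels were also set per kilobase of exon (CPM per kb, where CPM is the count scaled to the library total). On this scale Neat1, with 22397 bases of annotated exon, was again first at 67.8 CPM per kb. Pla2g10os, which overlaps the secreted phospholipase gene Pla2g10 on the opposite strand, was next at 45.2 CPM per kb, before Norad at 40.8 CPM per kb. Gm49980 had 35.4 CPM per kb, AW112010 34.1, 9430091E24Rik 31.5, Gas5 28.5, Bvht 25.4, and Gm13648 24.4. Malat1 had 22.2 CPM per kb. The median of the 200 was 2.98 CPM per kb, and that of protein-coding genes 5.17. The last members by mean raw count were Gm15675 (143.55), AA465934 (143.2), and 5031434O11Rik (142.45), and the first outside were 1810034E14Rik (142.1), 2610507I01Rik (141.25), and Gm14508 (139). Ranking by CPM in place of raw counts kept 199 of the 200.

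The 200 lncRNAs were spread over 21 chromosomes and were simple in structure, with a median of 4.5 exon blocks against 10 in protein-coding genes, and 32 had 1 block. Most lay close to coding genes: 106 overlapped a coding exon on the opposite strand, 11 overlapped one on the same strand, and 60 began within 2 kb of the start of a coding gene on the other strand, while 74 lay outside coding gene bodies. Of the 200, 21 hold an annotated snoRNA and 18 an annotated microRNA. According to the authors' methods the libraries were made with a stranded kit. Whether the counting used the strand is not given in the sources used here, so reads from a lncRNA and from its opposite partner may not have been told apart. A median of 12.1% of the 50-base windows of a member also occurred in another gene on either strand, and in 14 members this exceeded 50%. Gm48604, chosen for mention after its value was seen, shared 100% of its windows on the same strand, so its reads cannot be assigned to it.

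Their share of all counts was 0.628 ± 0.068% on 0% RPS, 0.594 ± 0.040% on 2% RPS, 0.602 ± 0.030% on 5% RPS, and 0.585 ± 0.057% on 10% RPS (SD, n = 5). Without Malat1 and Neat1 the shares were 0.461 ± 0.022%, 0.430 ± 0.021%, 0.429 ± 0.021%, and 0.410 ± 0.024%. Here libraries on 2% and 5% RPS overlapped the 0% RPS range, while the highest 10% RPS library (0.440935%) lay just below the lowest 0% RPS library (0.440958%). That lowest library was 0% RPS replicate 2, and the next lowest of its diet held 0.445189%. Without replicate 2 the 5% RPS libraries, at most 0.441681%, were also all below the 0% RPS range. Neat1 itself ranged from 20218 normalised counts (counts divided by DESeq2 size factors) in 0% RPS replicate 2 to 60683 in a 10% RPS library. Its counts were 37164, 20218, 44268, 54327, and 40429 at 0% RPS, 29238, 39424, 34839, 43715, and 53581 at 2% RPS, 41406, 38449.6, 48862, 37475, and 40628 at 5% RPS, and 29593, 40535, 42096, 45139, and 60683 at 10% RPS. All diets overlapped for Neat1, and its log2 fold change at 10% RPS was 0.15 (standard error 0.21, adjusted p = 0.727). Malat1 at 10% RPS stood at 0.11 (standard error 0.17, adjusted p = 0.745), and its highest libraries, with 7591 and 6957 normalised counts, were both on 5% RPS.

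Each RPS diet was compared with 0% RPS to ask which lncRNAs differed with the starch. A gene counted as changed at a DESeq2 adjusted p of 0.05 or less, over all genes, and a fold change of 1.5 or more, and "rose" or "fell" below refers to the adjusted p alone. At 10% RPS 2 of the 200 were changed, where 0.9% of all genes tested were changed. These were Gm36640, higher (0.525% of all genes), and Gm48898, lower (0.374% of all genes). At 5% RPS 0 of the 200 were changed (0.438% of all genes) and at 2% RPS 0 (0.0239% of all genes). With edgeR's quasi-likelihood test and the same thresholds the number was 0 at each level, where it changed 0, 0.0566, and 0.323% of all genes at 2, 5, and 10% RPS. An unadjusted p under 0.05 was reached by 14, 28, and 47 of the 200 at 2, 5, and 10% RPS with DESeq2, against 8.7, 16.6, and 18.8% of all genes. With edgeR it was reached by 15, 26, and 46 of the 200, against 8.09, 15.9, and 18% of all genes. Without a fold threshold 0 passed at 2% RPS (0.0239% of all genes) and 2 at 5% RPS (1.9% of all genes), 1 higher and 1 lower (1.33% and 0.573% of all genes). At 10% RPS 10 passed (4.6% of all genes), 2 higher and 8 lower (2.71% and 1.89% of all genes). These counts moved with the fit. Without 0% RPS replicate 2 they were 0, 8, and 21 at 2, 5, and 10% RPS, and with edgeR 0, 1, and 3. The shares of all genes that go with these counts are not given here. The 3 comparisons have the 0% RPS libraries in common.

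AW112010 (ENSMUSG00000075010, GRCm39 chromosome 19, 11021549 to 11033246, minus strand) ranked first by adjusted p among the 200 on 5% and on 10% RPS. It is an RNA induced in immune cells by inflammatory signals, and although annotated as noncoding it has been found to be translated. Its normalised counts were 1334, 1338, 1404, 1527, and 1688 at 0% RPS, 1702, 1958, 1707, 1750.2, and 1954 at 2% RPS, 2003, 1724, 2193, 1976, and 2380.2 at 5% RPS, and 1696, 2091, 1941, 2280.0, and 2074 at 10% RPS. Every library of each starch diet lay above all 5 of the 0% RPS libraries, an arrangement found on the higher side in 0.477, 1.46, and 1.35% of all genes at 2, 5, and 10% RPS. On the lower side the only such member was C630043F03Rik at 2% RPS (0.262% of all genes), named after its values were seen, with 0 at 5% RPS (0.962% of all genes). The log2 fold change was 0.31 (standard error 0.10) on 2% RPS with an adjusted p of 0.258, 0.49 (standard error 0.09) at 5% RPS (adjusted p = 0.000264, edgeR 0.0394), and 0.47 (standard error 0.09) at 10% RPS (adjusted p = 0.000362, edgeR 0.0277), all below the fold threshold of 1.5. AW112010 passed on both diets in all 20 fits that each left out 1 library, and without 0% RPS replicate 2 its change at 10% RPS was 0.44 (adjusted p = 0.00111). Ms4a8a, the nearest coding gene, on the same strand, moved by 0.44 (adjusted p = 0.0445) at 5% RPS and by 0.39 (adjusted p = 0.0533) at 10% RPS. The 2 of 8 T cell markers that had counts here summed to 173 to 228 normalised counts at 0% RPS, 166 to 255 at 2% RPS, 231 to 262 at 5% RPS, and 200.3 to 249.7 at 10% RPS. All 8 macrophage markers together stood at 2928 to 6775 at 0% RPS, or 2928 to 3901 without replicate 2, and at 3616 to 4658 at 10% RPS. The part of either cell type in the AW112010 values was not tested. In bulk tissue, more cells of a type and more RNA per cell cannot be told apart.

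The RefSeq promoter of AW112010 is shown because no other lncRNA of the 200 was separated from the controls on all 3 starch diets. It covers 250 bases before and 50 bases after a start that lies inside the longer GENCODE gene model (chr19:11027881-11028180, minus strand, by exact match to GRCm39).
AW112010: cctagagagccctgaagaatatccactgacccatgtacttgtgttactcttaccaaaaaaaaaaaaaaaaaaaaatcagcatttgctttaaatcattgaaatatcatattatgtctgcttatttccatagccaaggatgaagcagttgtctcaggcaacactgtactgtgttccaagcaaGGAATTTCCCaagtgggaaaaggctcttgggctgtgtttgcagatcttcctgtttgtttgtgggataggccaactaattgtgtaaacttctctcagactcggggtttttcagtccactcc
Capitals mark 1 match, on the opposite strand, to GGGANNTTCC, letters of the NF-κB site that were searched after the sequence had been read. That motif occurs in 1.63% of all gene symbols of the table and in 6 of the 123 of the 200 lncRNAs with an entry (4.88%), counting both strands and all entries of a symbol. The interferon-stimulated response element core TTTCNNTTTC (3.99% of symbols) and the STAT motif TTCNNNGAA (9.55% of symbols) had no match in this window, which says only that those letters are absent there.

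Gm36640 (ENSMUSG00000108276, GRCm39 chromosome 6, 135229055 to 135330448, plus strand) was the lncRNA with the largest increase among those that passed. It overlaps an exon of Gsg1 on the opposite strand. Its normalised counts were 799, 789, 870.0, 507, and 513 at 0% RPS, 943, 858, 688, 766, and 961 at 2% RPS, 852, 1007, 1153, 872, and 640.2 at 5% RPS, and 1429, 604, 1436, 1232, and 1221 at 10% RPS. At 10% RPS 4 of 5 libraries lay above every 0% RPS library, while replicate 2, with 604, lay within them. The mean went from 696 ± 172 to 1184 ± 340.4 (SD, n = 5), a log2 fold change of 0.77 (standard error 0.21) with an adjusted p of 0.013 (edgeR 0.0717), and without 0% RPS replicate 2 it was 0.82 (adjusted p = 0.00734). The call was kept in 17 of 20 fits that each left out 1 library and was lost without 0% RPS replicate 4 or 5 or 10% RPS replicate 3. It was also lost with edgeR and without 3 libraries numbered apart from the others in their labels. Those 3 were 2% RPS replicate 5 and 10% RPS replicates 4 and 5, so that fit also had fewer 10% RPS libraries. At 5% RPS the difference was 0.38 (standard error 0.21, adjusted p = 0.343).

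Gm48898 (ENSMUSG00000112441, GRCm39 chromosome 12, 8341024 to 8343694, minus strand), a transcript of 1 exon inside the body of the lipid droplet gene Ldah, was the member with the largest decrease among those that passed. Normalised counts of Gm48898 were 260.0, 174, 183, 223, and 258 at 0% RPS, 256.02, 237, 213, 234, and 122 at 2% RPS, 202, 156, 246, 143, and 175 at 5% RPS, and 106, 147, 149, 143, and 118 at 10% RPS. All 5 of the 10% RPS libraries lay below all 0% RPS libraries, as in 7 of the 200 at 10% RPS and 1.17% of all genes on the lower side. The mean went from 219.6 ± 40.6 to 133 ± 19.2 (SD, n = 5), a log2 fold change of -0.73 (standard error 0.19) with an adjusted p of 0.0109 (edgeR 0.0638), and without 0% RPS replicate 2 it was -0.80 (adjusted p = 0.00335). Gm48898 stayed past both thresholds in 18 of 20 fits that each left out 1 library, the exceptions being those without 0% RPS replicate 5 or 10% RPS replicate 5. Ldah moved by 0.09 (adjusted p = 0.56) at 10% RPS. None of the 50-base windows of Gm48898 occurred in another gene's transcripts.

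**Figure D2:**
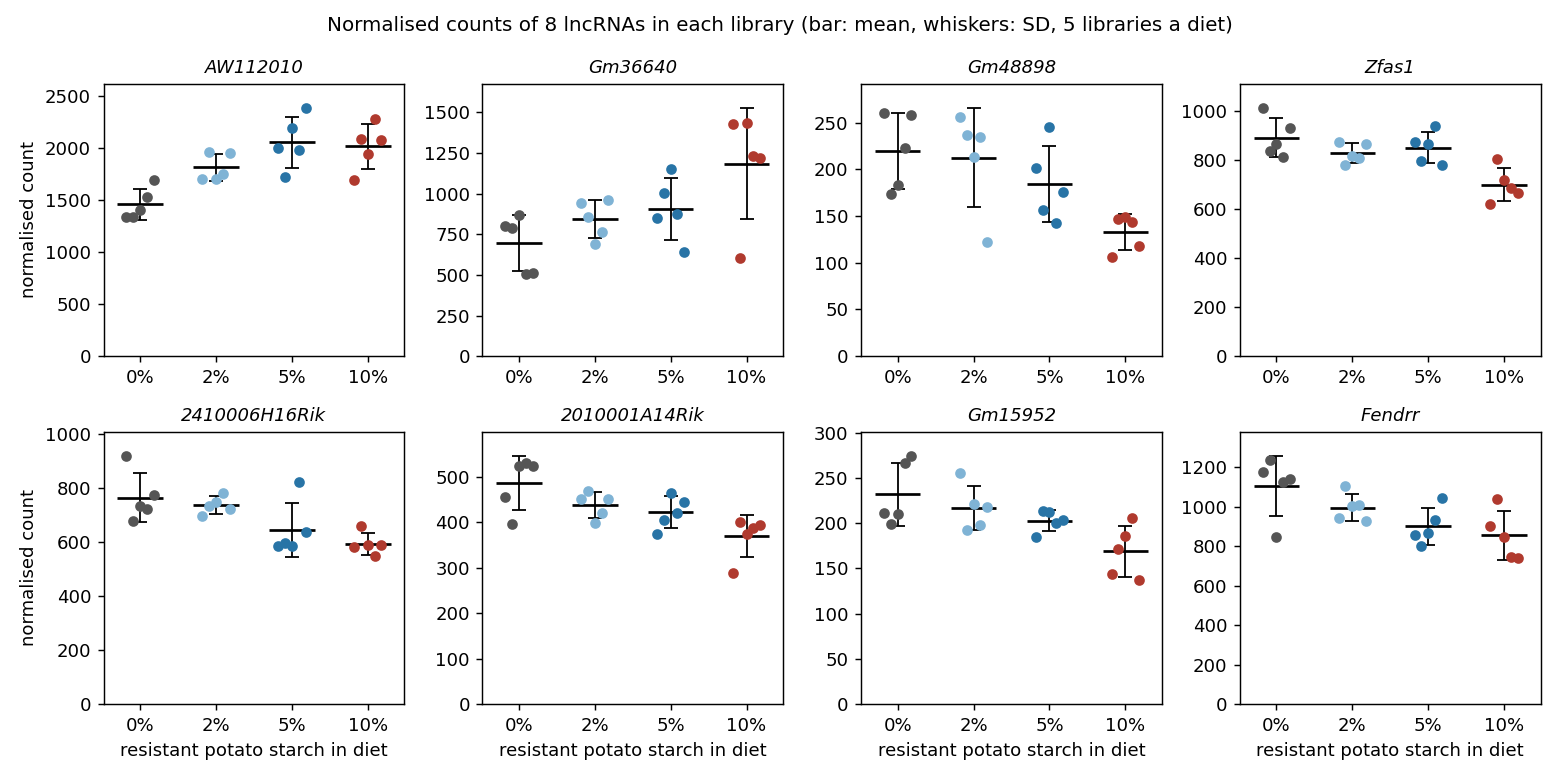
Normalised counts of 8 lncRNAs in each library of the 4 diets, with the mean (bar) and SD (whiskers, n = 5). For AW112010 every starch-fed library lies above the 0% RPS libraries, and for Gm48898, Zfas1, and 2410006H16Rik every 10% RPS library lies below them.

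Zfas1 (ENSMUSG00000074578, GRCm39 chromosome 2, 166903619 to 166907799, plus strand) overlaps Znfx1, a gene of antiviral RNA sensing, on the opposite strand and carries 3 annotated snoRNAs. It had the smallest adjusted p of the lncRNAs that fell at 10% RPS. Zfas1 had normalised counts of 1013, 840.3, 865, 812, and 933 at 0% RPS, 875, 780.3, 818, 809, and 867 at 2% RPS, 875, 799, 866, 939, and 781 at 5% RPS, and 622, 806, 718.4, 689, and 669 at 10% RPS. All 10% RPS libraries lay below all 0% RPS libraries, while the 2% and 5% RPS libraries overlapped both. The log2 fold change was -0.35 (standard error 0.08, adjusted p = 0.00174, edgeR 0.0314), under the fold threshold, and it passed the adjusted p in all 20 fits that each left out 1 library. Znfx1, on the other strand, moved by 0.10 (adjusted p = 0.343).

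2410006H16Rik (ENSMUSG00000086841, GRCm39 chromosome 11, 62493536 to 62495725, plus strand) is another host, with 3 snoRNAs and a start in a run of 9 pyrimidines. Its normalised counts were 916, 679, 733, 720.0, and 773 at 0% RPS, 697, 734, 749, 782, and 720.0 at 2% RPS, 584, 595, 587, 819.9, and 637 at 5% RPS, and 581, 658, 588, 546, and 589 at 10% RPS. The highest 10% RPS library, with 658, was below the lowest 0% RPS library, with 679. The log2 fold change at 10% RPS was -0.37 (standard error 0.10, adjusted p = 0.0121, edgeR 0.063). Of its 50-base windows 76.8% also occur in transcripts of other genes on the opposite strand, where Lrrc75a lies, so these counts may hold reads of other genes. The share of Lrrc75a alone was not computed. Lrrc75a moved the other way, by 0.32 (adjusted p = 0.0275) on the 5% diet, and on the 10% diet by 0.22 (adjusted p = 0.134).

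As a group, 17 listed snoRNA host genes were among the 200. At 10% RPS 16 of the 17 had a lower mean, with a median log2 fold change of -0.14. Only Zfas1 passed the adjusted p, where 1.89% of all genes passed on the lower side. At 5% RPS 4 of 17 were lower (median 0.03) and at 2% RPS 13 of 17 (median -0.03), with 0 passing at either level. Over all genes tested, 49.9% were lower at 10% RPS, and over the 199 lncRNAs tested 72.4%. Of the 21 members with an annotated snoRNA inside, 16 (76.2%) were lower at 10% RPS and 2 passed, against 128 of the 178 tested members without one (71.9%). Gas5, a growth arrest transcript that holds 10 annotated snoRNAs, had normalised counts of 3968, 3171, 3269, 3105, and 3096 at 0% RPS, 3235, 3386, 3328, 3412, and 3365 at 2% RPS, 3510.4, 3196, 3493, 3504, and 3396 at 5% RPS, and 2533, 3139, 2820.2, 2974, and 3131 at 10% RPS. The 10% RPS libraries of Gas5 reached from 2533 to 3139 and overlapped the lower 0% RPS libraries, at a log2 fold change of -0.19 (standard error 0.07, adjusted p = 0.101). Snhg12 stood at -0.22 (standard error 0.09, adjusted p = 0.133), Snhg20 at -0.23 (standard error 0.10, adjusted p = 0.192), Snhg1 at -0.11 (standard error 0.10, adjusted p = 0.547), and Dancr, the exception, at 0.02 (standard error 0.11, adjusted p = 0.943). All 5 of the 10% RPS libraries of Snhg20 were below its 0% RPS libraries. When each library was left out in turn, 14 to 17 of the 17 were lower, with medians from -0.19 to -0.10, and 15 were lower without 0% RPS replicate 2 (median -0.18). Cytosolic ribosomal protein genes, a set chosen after these values were seen, were lower in 76 of 80 cases at 10% RPS, 16 of them past the adjusted p (1.89% of all genes), with a median of -0.13. They were lower in 21 of 80 cases at 2% RPS and in 47 of 80 at 5% RPS, unlike the listed hosts with 13 of 17 and 4 of 17.

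**Figure D3:**
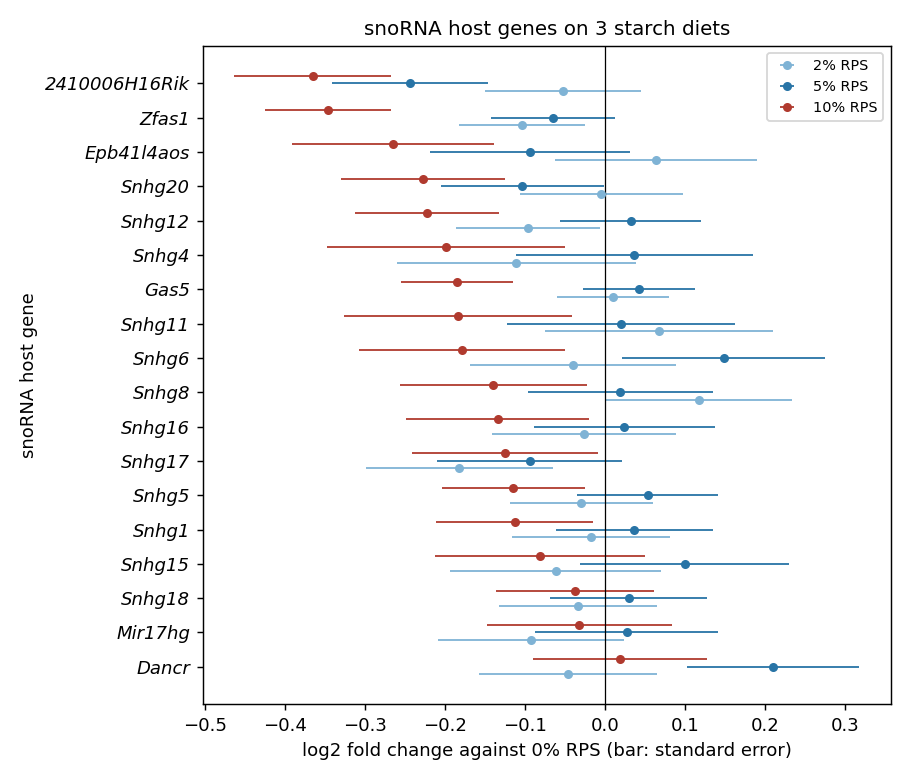
Log2 fold change against 0% RPS, with its standard error, of the 17 listed snoRNA host genes and 2410006H16Rik on 2, 5, and 10% RPS. At 10% RPS all but Dancr lie below 0, and at 5% RPS most lie above it.

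Of the other members that fell at 10% RPS, Fendrr (log2 fold change -0.37, standard error 0.11, adjusted p = 0.0258, edgeR 0.0789) starts 1225 bases from Foxf1 on the opposite strand, a transcription factor gene of gut mesenchyme, and is required for development of the heart and body wall. Fendrr had normalised counts of 1176, 1237, 849, 1128, and 1139 at 0% RPS, 942, 1104, 1002, 1009, and 927 at 2% RPS, 859, 804, 866, 934, and 1045 at 5% RPS, and 905, 1041, 845, 748.05, and 740.3 at 10% RPS. The 2 diets overlapped, since 0% RPS replicate 3 had 849, and Foxf1 moved by -0.28 (adjusted p = 0.147). Fendrr passed the adjusted p in 13 of 20 fits that each left out 1 library, and without 0% RPS replicate 2 its change was -0.32 (adjusted p = 0.0527). Fibroblast markers summed to 18694 to 55432 at 0% RPS and 19925 to 29104 at 10% RPS, and smooth muscle markers to 126307 to 281490 and 129585 to 218910. Without 0% RPS replicate 2 the 0% RPS ranges were 18694 to 29406 for fibroblast and 126307 to 184916 for smooth muscle markers. With a smooth muscle score as a covariate, the log2 fold change of Fendrr at 10% RPS was -0.34 (adjusted p = 0.0374). The part of fibroblasts in the Fendrr values was not tested.

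2010001A14Rik, which starts 57 bases from Sap30l, had normalised counts of 456, 396, 524, 529.6, and 525 at 0% RPS, and 289, 401, 374, 388, and 393 at 10% RPS, and a log2 fold change of -0.40 (standard error 0.10, adjusted p = 0.007, edgeR 0.0508). Only 1 of its 10% RPS libraries, the highest with 401, reached into the 0% RPS range. That range began at 396 in 0% RPS replicate 2, and the next lowest 0% RPS library held 456. Without replicate 2 the log2 fold change of 2010001A14Rik was -0.46 (adjusted p = 0.000306). Gm37422, opposite Smyd2, fell by 0.37 on the log2 scale (adjusted p = 0.00987, edgeR 0.0385), and its 10% RPS libraries, at 151 to 175 normalised counts, were all below the lowest 0% RPS library at 180.0. Gm15952 (log2 fold change -0.46, adjusted p = 0.0144) and Gm36738 (-0.50, adjusted p = 0.0476) also fell, without edgeR passing either (0.0638 and 0.107). Gm36738 passed in 8 of 20 fits that each left out 1 library, among them the fit without 0% RPS replicate 2 (-0.57, adjusted p = 0.0137).

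Gm2061, opposite the manganese transporter gene Slc30a10, had the third smallest p among the higher members at 10% RPS without passing (adjusted p = 0.0881). Its normalised counts were 541, 130.2, 451, 559.9, and 389.8 at 0% RPS, 479, 507, 632, 623, and 516 at 2% RPS, 491, 552, 573, 664, and 678 at 5% RPS, and 567, 676, 609, 713, and 671 at 10% RPS. Every 10% RPS library lay above every 0% RPS library, and replicate 2 of the 0% RPS diet, with 130.2, was far below the rest. Without that library the log2 fold change went from 0.64 to 0.42 (adjusted p = 0.0205). Slc30a10 moved by 0.63 (adjusted p = 0.409).

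At 5% RPS the lncRNAs that passed the adjusted p were AW112010, higher, and Gm33989, lower. Gm33989 had normalised counts of 663, 759, 802, 798, and 872 at 0% RPS, 652, 539, 596, 732, and 666 at 2% RPS, 612, 560.3, 559.9, 673, and 665 at 5% RPS, and 519.6, 745, 644, 699, and 647 at 10% RPS, and the 2 highest of its 5% RPS libraries lay within the 0% RPS range. Its log2 fold change was -0.34 (standard error 0.10, adjusted p = 0.048, edgeR 0.14), and it passed in 9 of 20 fits that each left out 1 library. Gm48529, opposite the smooth muscle gene Tagln, stood at 0.34 (standard error 0.12, adjusted p = 0.099), Gm15545 at -0.44 (standard error 0.15, adjusted p = 0.0808), and D930048N14Rik at -0.39 (standard error 0.14, adjusted p = 0.108). Without 0% RPS replicate 2, Gm15545 passed at 5% RPS (-0.51, adjusted p = 0.0209), while Gm48529 (adjusted p = 0.105) and D930048N14Rik (adjusted p = 0.158) did not. At 2% RPS, where none passed, the smallest p values besides that of AW112010 belonged to Gm48529 (0.34, adjusted p = 0.417) and Mir22hg (0.24, adjusted p = 0.595) on the higher side. On the lower side they belonged to Gm33989 (-0.29, adjusted p = 0.421), Gm37422 (-0.24, adjusted p = 0.466), and Oip5os1 (-0.10, adjusted p = 0.499).

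The 4 diets were also tested together. A difference anywhere among them (DESeq2 likelihood ratio test) passed for 4 of the 200, AW112010 (adjusted p = 0.000195), Zfas1 (0.00965), 2410006H16Rik (0.0308), and Gm48898 (0.0397), against 2.38% of all genes. edgeR gave 0 of the 200 (0.0566% of all genes). An unadjusted p under 0.05 was reached by 29 with DESeq2 (14.3% of all genes) and 23 with edgeR (12.1% of all genes). AW112010 passed in all 20 fits that each left out 1 library, Zfas1 in 18, 2410006H16Rik in 11, and Gm48898 in 5. A linear trend over the percentage of RPS passed for 10 of the 200 (4.29% of all genes), 2 rising and 8 falling (2.4% and 1.89% of all genes), and for 5 with edgeR (1.33% of all genes). An unadjusted p under 0.05 was reached by 41 with DESeq2 (19.1% of all genes) and 39 with edgeR (18.3% of all genes). The 10 were the same genes that passed the adjusted p at 10% RPS, a comparison that shares all its libraries with the trend. Those with the smallest adjusted p were Gm48898, with a slope of -0.07 (standard error 0.02) log2 units per percent RPS (0.00278), 2410006H16Rik (0.00284), and Zfas1 (0.00446), and edgeR passed these 3, 2010001A14Rik, and Gm15952.

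Small differences below 0 were common among the 200. At 10% RPS 144 of the 199 tested (72.4%) had a lower mean than at 0% RPS, with a median log2 fold change of -0.10, while 49.9% of all genes were lower. At 2% RPS the number was 140 (70.4%, median -0.06) against 52.3% of all genes, and at 5% RPS 122 (61.3%, median -0.06) against 52.5%. At an unadjusted p under 0.05, 39 of the 200 were lower and 8 higher at 10% RPS, where 8.76% of all genes were lower and 10.1% higher. The median at 10% RPS stayed between -0.15 and -0.08 under the settings tried, and without 0% RPS replicate 2 it was -0.13, with 151 of 200 lower. Members that begin within 2 kb of an opposite coding start were lower in 49 of 60 cases at 10% RPS, those outside coding gene bodies in 51 of 74, and lncRNAs of the table ranked below the first 200 in 198 of 308. Libraries contributed unequally: 10% RPS replicate 1 had the lowest value for 42 of the 200 and 0% RPS replicate 2 for 31, and 0% RPS replicate 5 had the highest for 30. Fat markers of 10% RPS replicate 1 summed to 14568 normalised counts, against at most 5849 in the other libraries, and the colon epithelium markers of every 5% and 10% RPS library lay above every 0% RPS library. The part of either in these differences was not tested. The plot of the fold change distributions shows the shift on all 3 diets.

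**Figure D4:**
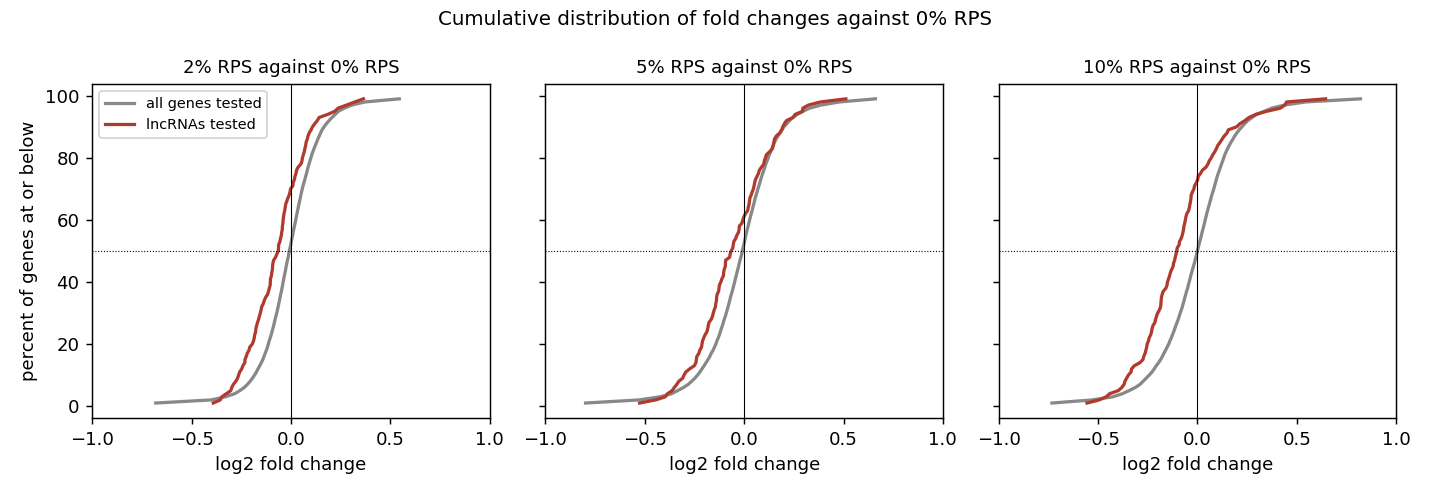
Percent of genes at or below each log2 fold change against 0% RPS, for all genes tested (grey) and for the 199 lncRNAs tested (red). The red curve crosses 50% at -0.06, -0.06, and -0.10 on 2, 5, and 10% RPS, and the grey curve near 0.

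Of 10 well studied lncRNAs (Neat1, Norad, Malat1, Bvht, Oip5os1, Firre, Fendrr, Chaserr, Ftx, and Dubr) 7 (70%) had a lower mean at 10% RPS. Over the 199 lncRNAs tested 72.4% were lower, and over all genes 49.9%. Fendrr passed, where 1.89% of all genes passed on the lower side. Firre stood at -0.21 (standard error 0.11, adjusted p = 0.239) and Norad at 0.05 (standard error 0.07, adjusted p = 0.742). Among imprinted lncRNAs, Meg3 (-0.27, standard error 0.14, adjusted p = 0.257), Rian (-0.20, standard error 0.15, adjusted p = 0.483), and Peg13 (-0.29, standard error 0.12, adjusted p = 0.136) were all lower, and 0 of 3 passed. For Meg3 and Rian, which lie in 1 imprinted domain on chromosome 12, replicate 2 of the 0% RPS diet was the highest of its diet with 5849 and 2268 normalised counts. Without that library 3 of 3 imprinted lncRNAs were lower at 10% RPS and the median log2 fold change went from -0.27 to -0.16. At 2% and at 5% RPS, 3 of 3 were lower with that library and 1 of 3 without it. Of 6 microRNA hosts, among them Mir17hg of the snoRNA host list, 4 (66.7%) were lower at 10% RPS and 0 passed. The 10% RPS libraries of Mir100hg, which holds miR-100 and miR-125b, were at 560.3 to 659 normalised counts, all below the 0% RPS libraries at 695 to 779, with a log2 fold change of -0.24 (standard error 0.12, adjusted p = 0.25). Mature microRNAs were not measured by these libraries.

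Variation among mice was described by the SD within a diet, without matching genes on level. The median SD within a diet was 0.219 on the log2(normalised count + 1) scale, against 0.145 over 11229 protein-coding genes with a mean of at least 100. In the median member the highest library held 1.83 times the lowest, in 25 members this ratio was under 1.5, and in 17 it was over 3. Oip5os1 varied little, from 3088 to 3808 normalised counts. Gm15564, within the body of Kpna1, had the widest range: its counts were 115, 90.6, 155, 77.3, and 73.6 at 0% RPS, 113, 55.3, 169, 181, and 141 at 2% RPS, 129, 307, 145, 1459.7, and 125 at 5% RPS, and 94.9, 135, 604, 154, and 284 at 10% RPS. Replicate 4 on 5% RPS, with 1459.7, stood far above the rest, and the log2 fold change at 5% RPS was 2.08 (standard error 0.65, adjusted p = 0.0607), against 0.79 without that library. Slc13a2os ranged from 226 to 1271 and Gm42031 from 278 to 1468 normalised counts, with all diets overlapping.

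Hoxa11os, which runs opposite Hoxa11 in a cluster of patterning genes, had its highest value in the 0% RPS library that stood apart. Its normalised counts were 246, 2974, 261, 313, and 334 at 0% RPS, 690.4, 307, 285, 284, and 198.8 at 2% RPS, 256.02, 237, 289, 196, and 257 at 5% RPS, and 196, 236, 189, 220.0, and 175 at 10% RPS. All 10% RPS libraries were below all 0% RPS libraries, and replicate 2 of the 0% RPS diet held 2974, against at most 690.4 in the other 19 libraries. DESeq2 gave Hoxa11os no p in the 3 comparisons under its filter on Cook's distance, and without the library the log2 fold change at 10% RPS was -0.50 (adjusted p = 0.211). Its linear trend passed in 1 of 20 fits that each left out 1 library. That was the fit without this library, with a slope of -0.07 log2 units per percent RPS (adjusted p = 0.0473). Hoxb5os stood at -0.21 (standard error 0.24, adjusted p = 0.67) and Hoxaas3 at -0.14 (standard error 0.16, adjusted p = 0.661).

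**Figure D5:**
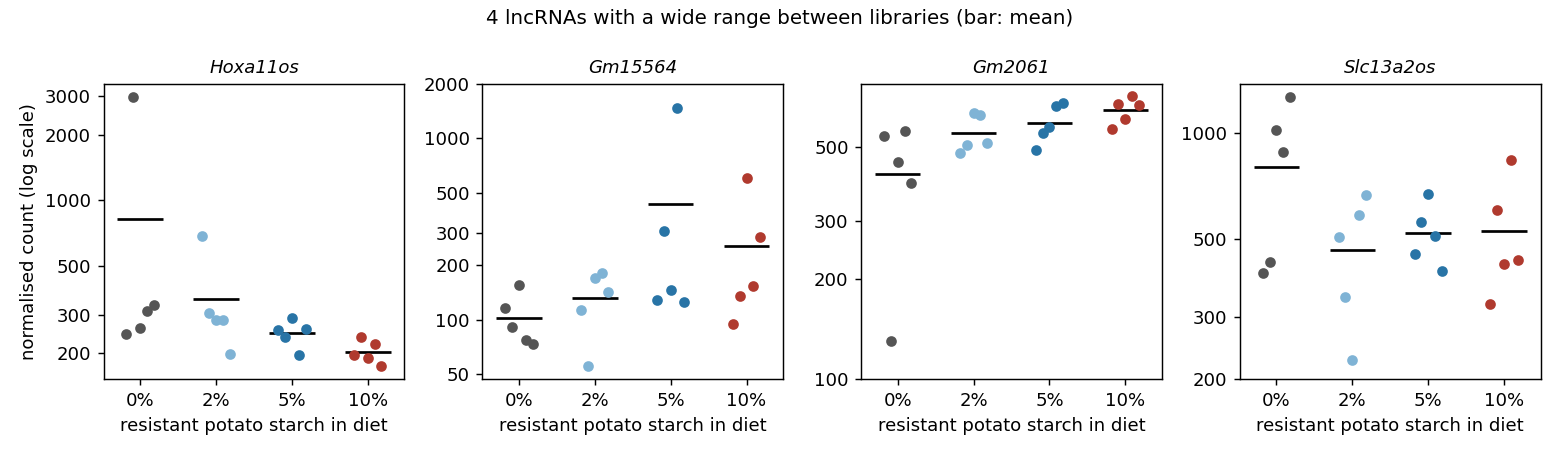
Normalised counts (log axis) of 4 lncRNAs in each library of the 4 diets, with the mean as a bar. A single library stands far above the rest for Hoxa11os at 0% RPS (2974) and Gm15564 at 5% RPS (1459.7), and 1 library is far below the rest for Gm2061 (130.2).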

How the data were processed

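Raw read counts per Ensembl gene were deposited by the authors for 20 PC libraries. According to their methods, bases of low quality and reads with several ambiguous bases were taken out, and the rest were aligned to GRCm39 and counted with CLC Genomics Workbench. The annotation, strand use, and handling of reads with several matches are not given in the sources used here. Diets came from the labels. The 40 pairs of libraries of a diet differed by more than counting noise (chi-square per degree of freedom 13.5 to 126), so each was kept as 1 replicate. Gene types, exons, and positions were taken from GENCODE M39, which held 12682 of the 12701 identifiers.

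DESeq2 (version 1.42.0, R version 4.3.3) was fitted to all genes and all 20 libraries with diet as the term, with a likelihood ratio test over the diets and a Wald test of a slope on the percentage of RPS. P values were adjusted over all genes by Benjamini-Hochberg, and an adjusted p is that of DESeq2 wherever edgeR is not named. The thresholds were an adjusted p of 0.05 and a fold change of 1.5. Alternatives were edgeR (version 4.0.16, 12366 genes kept), TMM factors as size factors, a filter of 10 counts in 5 libraries (12374 genes), independent or Cook filtering off, no fold threshold or 2, only the 2 diets compared, a smooth muscle score or 1 surrogate variable (sva version 3.50.0) as a covariate, ranking by CPM, omission of 3 libraries numbered apart in their labels, and omission of each library. The fits were tested on simulated data. Promoters were read from RefSeq's table and located on GRCm39 by exact match. Summaries used pandas 2.3.3 under Python 3.11.15, and plots matplotlib 3.10.9.

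The members, gene lists, and tests were chosen with earlier results of these data known. Named were the 10 lncRNAs with the highest mean count and the 10 with the highest CPM per kb, those changed in a comparison or among the 10 smallest adjusted p values over the diets or in the trend, the 3 with the smallest p in each direction of a comparison with fewer than 3 changed, members of 5 lists (snoRNA hosts, microRNA hosts, well studied, imprinted, and Hox cluster lncRNAs), the last 3 inside and first 3 outside the rank of 200, and the 5 with the widest range. One lncRNA that this rule names is not reported here. Each library is 1 mouse, and the precision is limited by 5 mice a diet.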

Additional observations from a re-analysis of the deposited data

Results flagged for a closer look

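Among the 62 lncRNAs chosen to be named, 248 groups of 5 libraries were checked for a library far from the other 4 of its diet (Dixon's test, critical ratio 0.71), and 21 were found, where chance alone gives about 1 in 20 groups. That rate does not hold for lncRNAs named for their wide range between libraries, among them Hoxa11os, Gm15564, and Gm42031. The values are normalised counts. A high library was found for Norad in 5% RPS replicate 5 (5969, the others 5356 to 5505), Meg3 in 0% RPS replicate 2 (5849, the others 3775 to 4352), Gas5 in 0% RPS replicate 1 (3968, the others 3096 to 3269), Gm15564 in 5% RPS replicate 4 (1459.7, the others 125 to 307), 2410006H16Rik in 5% RPS replicate 4 (819.9, the others 584 to 637), Snhg8 in 0% RPS replicate 1 (588, the others 378 to 400.0), and Snhg8 in 5% RPS replicate 3 (472, the others 417 to 431). The same was found for Snhg11 in 2% RPS replicate 1 (2317, the others 1396 to 1598), Snhg17 in 5% RPS replicate 4 (738, the others 535 to 583), Carmn in 0% RPS replicate 4 (413, the others 254 to 277), Rian in 0% RPS replicate 2 (2268, the others 1207 to 1508), Hoxa11os in 0% RPS replicate 2 (2974, the others 246 to 334), Hoxa11os in 2% RPS replicate 1 (690.4, the others 198.8 to 307), and Gm42031 in 0% RPS replicate 3 (1468, the others 638 to 858). A low library was found for Gm43305 in 10% RPS replicate 3 (1773, the others 2450.0 to 2717), Gm36640 in 10% RPS replicate 2 (604, the others 1221 to 1436), 2010001A14Rik in 10% RPS replicate 1 (289, the others 374 to 401), Fendrr in 0% RPS replicate 3 (849, the others 1128 to 1237), Snhg12 in 2% RPS replicate 1 (323, the others 347 to 356), Epb41l4aos in 2% RPS replicate 3 (234, the others 284 to 301), and Mir17hg in 10% RPS replicate 1 (241, the others 293 to 306). Replicate 2 of the 0% RPS diet gave the high values of Meg3, Rian, and Hoxa11os. Of the lncRNAs that passed the adjusted p at 10% RPS, those with such a library were Gm36640 and 2010001A14Rik at 10% RPS, 2410006H16Rik at 5% RPS, and Fendrr at 0% RPS. The cause was not tested.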

How the results depend on the processing

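Counts of the 200 lncRNAs past the thresholds were small and moved with the settings. At 2% RPS the count was 0 under every setting tried. At 5% RPS, where it was 0, it became 1 with the smooth muscle score as a covariate and 2 without a fold threshold, and 0 to 1 when each library was left out. At 10% RPS the count of 2 became 0 with edgeR or a fold threshold of 2, 6 with 1 surrogate variable, and 10 without a fold threshold. It became 1 without 3 libraries numbered apart in their labels (2% RPS replicate 5 and 10% RPS replicates 4 and 5), which left fewer 10% RPS libraries. It was 0 to 5 when each library was left out, with 0 without 0% RPS replicate 5, 1 without 0% RPS replicate 4 or 10% RPS replicate 3 or 5, and 5 without 0% RPS replicate 2. Over the 4 diets the count of 4 became 0 with edgeR, 2 without those 3 libraries, 11 with the smooth muscle score, and 14 with 1 surrogate variable, and ranged from 1 (without 10% RPS replicate 5) to 10 (without 0% RPS replicate 2) when each library was left out. It was 2 without 0% RPS replicate 4 or 5, 2% RPS replicate 2, 5% RPS replicate 2, or 10% RPS replicate 3, 7 without 0% RPS replicate 1 or 10% RPS replicate 2, and 9 without 0% RPS replicate 3. In the trend the count of 10 became 5 with edgeR, 3 without those 3 libraries, 14 with the smooth muscle score, and 15 with 1 surrogate variable, and 6 to 16 when each library was left out: 6 without 10% RPS replicate 3 or 5, and 16 without 0% RPS replicate 2 or 10% RPS replicate 2. For most of these settings the share of all genes past the thresholds is not given here. The counts alone therefore cannot tell a move of the lncRNAs from a move of all genes. The cause of these moves was not tested. Leaving out Malat1 and Neat1 took the share of all counts to 0.461%, 0.430%, 0.429%, and 0.410% on 0, 2, 5, and 10% RPS. For 30 selected log2 fold changes of 18 named lncRNAs, those at 10% RPS and in any other comparison whose smallest p values named the lncRNA, 870 values were recomputed: 0 reversed, 8 lost and 6 gained a call, and 856 kept both direction and side of the thresholds. Only Gm36640 and Gm48898 at 10% RPS were past the thresholds in the main fit, so no other could lose a call. Gm36640 kept its call in 24 of 29 recomputations and Gm48898 in 26 of 29. Outside these 30, the value at 2% RPS changed sign between settings for Gm48898 (-0.12 to 0.10), 2410006H16Rik (-0.09 to 0.02), and Hoxa11os (-1.62 to 0.29). No paired analysis was possible because the labels give no replicate numbers that the diets share.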
